A study of Mus musculus with 12 samples.

Results

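Immediate early high spinous wells are single epidermal cells with keratins of the spinous layer in which at least 2% of all ribosome footprint counts came from 9 immediate early genes. The wells were chosen by these measured counts: a well had to hold at least 100 counts, Fos, Jun, Junb, Egr1, Ier2, Atf3, Nr4a1, Zfp36 and Btg2 together had to reach 3 counts and 2% of its total, and Krt1, Krt10, Krt5 and Krt14 together had to reach 5 counts with a share of Krt1 and Krt10 of at least 0.5. Wells in which the follicle genes Krt79, Krt17 and Cst6 reached 1% were to be left out, and there were 0 of them. The rule found 76 wells among 1906 wells of at least 100 counts, called high wells here. They were set against 376 spinous wells that met the same keratin and depth terms and stayed below 2%, called low wells.

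The cells came from the back skin of female C57Bl/6 mice, old animals of 22 to 26 months and young ones of 56 to 60 days. Each cell was sorted alive into 1 well of a plate without a marker gate, and every animal received cycloheximide, which stalls ribosomes on their mRNA, before death. The old animals are called P662, P722 and P758 and the young ones P57, P59 and P60 after their postnatal days, and plates of one age and day were taken as 1 animal (5 plates per age). Each count is a footprint, a piece of mRNA that survived nuclease digestion inside a ribosome, so a higher value can mean more mRNA, more ribosomes on it, or both.

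Immediate early genes are transcribed within minutes of a stimulus without new protein synthesis, and are known to respond to growth factors, wounding, stress and the handling of tissue. Many code for transcription factors, among them the Fos and Jun proteins that pair to form AP-1, and others code for proteins that end the response. In the epidermis, basal keratinocytes with Krt5 and Krt14 attach to the basement membrane through hemidesmosomes, and spinous cells above them switch to Krt1 and Krt10 and build desmosomes. AP-1 factors are known to act on genes of epidermal differentiation.

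The 76 wells were unevenly spread over the animals. P662 gave 38, which is 59.4% of its 64 spinous wells (exact 95% interval 46.4 to 71.5%). P758 gave 32, or 17.8% of 180 (12.5 to 24.2%), and P722 gave 0 of 10, which allows a share of up to 30%. Of the young animals, P59 gave 5 of 10 (50%, 18.7 to 81.3%), P60 gave 1 of 185 (0.541%, 0.0137 to 2.97%) and P57 gave 0 of 3. High wells were therefore frequent in 1 animal of each age and rare or not seen in another of each age. Within P662 the plates held 72.5% of 40 and 37.5% of 24 spinous wells, and within P758 they held 14.1% of 85 and 21.1% of 95. The mean share was 25.7 ± 30.5% over the old and 16.8 ± 28.7% over the young animals (SD, n = 3 each), a difference of 8.87 percentage points in a two-sided exact permutation test (p = 0.7, where the smallest p this design allows is 0.1). Without P662 the difference was -7.96 and without P59 it was 25.4 percentage points. The same animals gave many wells of the basal side that passed the immediate early terms, with 72.7% of basal wells in P662, 27.9% in P758 and 6.25% in P722, against 35.3% in P59, 2.87% in P60 and 0 of 2 in P57. Depth per well differed between animals: the median well held 298.5 counts among high and 536.5 among low wells of P662, 1222.5 and 938 in P758, and 132 and 205 in P59. The share expected at 100 counts per well was 44.3% in P662, 14.1% in P758 and 40.8% in P59, against 1.08% in P60. Among wells of at least 500 counts the share was 44% of 25 in P662 and 20.4% of 137 in P758, against 0 of 2 in P59 and 0 of 161 in P60. P722 gave 0 of 1 and P57 0 of 2. The high share of P59 thus rests on wells below 500 counts. Among wells of at least 500 counts the difference of old over young animals was 21.5 percentage points (two-sided exact permutation test, p = 0.4). Each animal counts alike in it, also those with 1 or 2 wells.

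**Figure D1:**
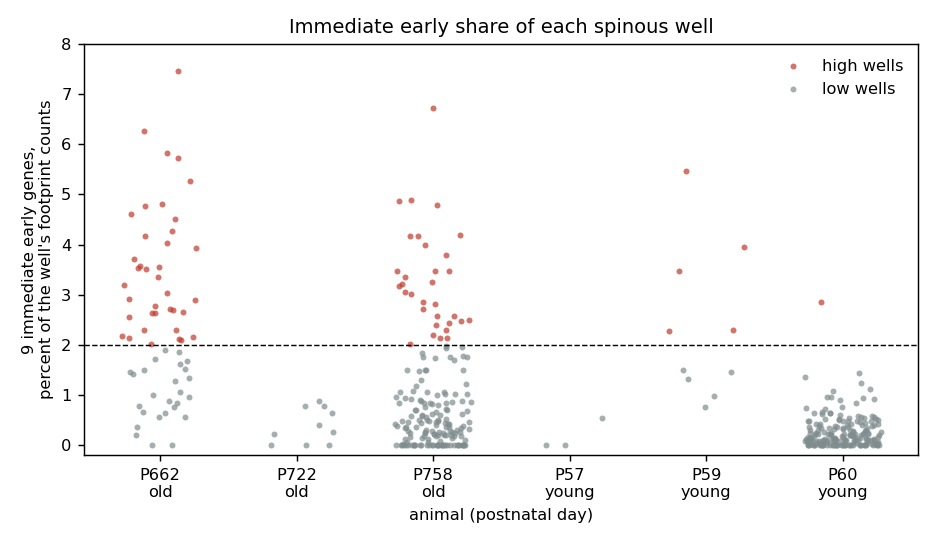
Percent of a well's footprint counts that came from the 9 immediate early genes of the rule, for every spinous well, by animal, with old animals on the left. The dashed line is the 2% threshold, red points are high wells and grey points low wells, and the sideways spread within an animal has no meaning. The values run on across the line in P662, P758 and P59, while 184 of the 185 wells of P60 lie below it.

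Around the threshold the values were continuous. The 5 high wells nearest to it had 2.02 to 2.13%, and the 5 low wells nearest to it 1.86 to 1.99%. Over the high wells the immediate early share ran from 2.02 to 7.46% with a median of 3.19%, against a median of 0.257% in low wells. By animal the median of low wells was 0.98% in P662, 0.357% in P758 and 1.32% in P59. It was 0.166% in P60, which held 184 of the 376 low wells, 0.331% in P722 and 0% in P57. Of the 76 wells 34 lay between 2 and 3%, 35 between 3 and 5% and 7 at 5% or more, and 7 wells passed with only 3 or 4 immediate early counts. Their keratins lay far on the spinous side, with a ratio of exactly 1 in 36 wells and of at least 0.8 in 61.

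The response of the rule was seldom carried by 1 gene. A high well had a count of a median of 7 of the 9 genes (range 1 to 9), and 64 of the 76 had at least 5 of them. Of the 2089 immediate early counts, which are not scaled to gene length, Fos gave 19.96%, Egr1, a zinc finger transcription factor, 14.8%, Zfp36, which binds AU-rich mRNAs and speeds their decay, 13.0% and Jun 12.6%. Junb gave 10.9%, Atf3, a stress-induced factor of the ATF family, 9.33%, Ier2 8.62%, Btg2, an antiproliferative gene, 6.03% and the orphan nuclear receptor Nr4a1 4.74%. The levels that follow chose the wells and are a description without a test. They are in CPM, counts scaled to a total of 1000000 for the summed wells, always in the order P662, P758 and P59. Fos (chr12:85473890-85477274, build GRCm38.p6) had 6579.8, 6982 and 5945 CPM in high wells, against 1257, 889 and 1559 CPM in low wells. Atf3 (chr1:191170296-191183333) had 2381, 3399.7 and 7134 CPM in high wells and 931, 282 and 1247 CPM in low wells. In both genes all 3 animals had more in their high wells. Jun had 4199, 4472 and 0 CPM in high wells and 1350.2, 795 and 3118 CPM in low wells, so that the 5 high wells of P59, which held 841 counts in all, contained no Jun count, and they contained none of Ier2 either. A single count in them is worth 1189 CPM.

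**Figure D2:**
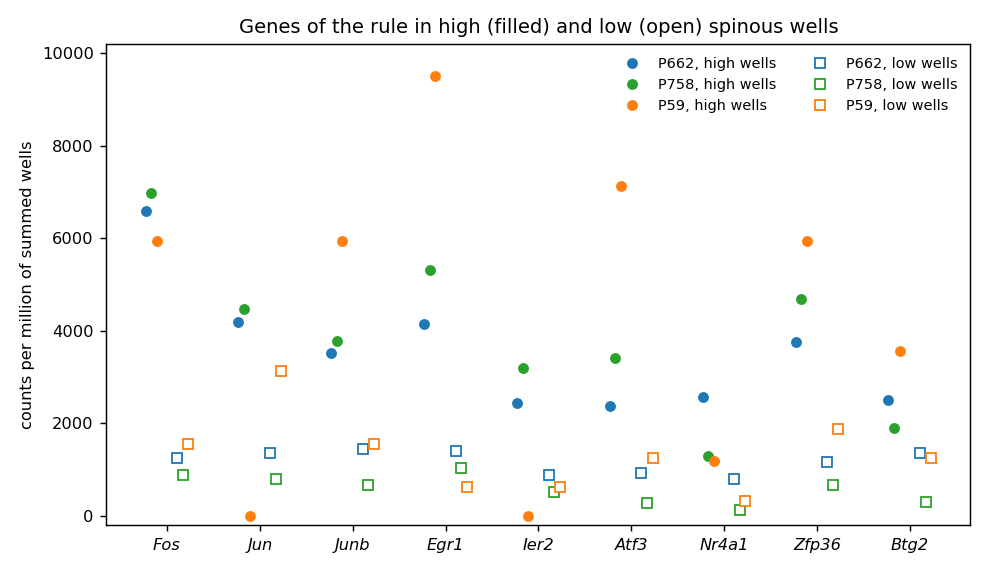
Level in CPM of the 9 immediate early genes of the rule in high spinous wells (filled circles, left) and low spinous wells (open squares, right) of the 3 animals with at least 5 wells of each kind. Each point is the summed count of 1 animal. The genes chose the wells, so the gap between filled and open points is a description, and Jun and Ier2 of P59 lie at 0 in high wells.

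The sequences around the start sites of 5 immediate early genes are shown because 3 of them, Fosb, Ifrd1 and Dusp1, were not read by the rule and rose with Fos and Atf3, which were. They are RefSeq windows of build GRCm38.p6, 250 bases before to 50 after the annotated start, written 5′ to 3′ on the strand of the gene. Capitals mark TGACG or its complement CGTCA, the core of the cyclic AMP response element, to which CREB and ATF proteins bind.
Fos: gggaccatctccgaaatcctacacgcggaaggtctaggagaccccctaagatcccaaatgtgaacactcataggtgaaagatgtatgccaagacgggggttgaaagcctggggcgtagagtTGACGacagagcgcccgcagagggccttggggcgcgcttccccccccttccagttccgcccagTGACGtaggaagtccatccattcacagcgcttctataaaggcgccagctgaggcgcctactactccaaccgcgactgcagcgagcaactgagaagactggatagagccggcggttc
Atf3: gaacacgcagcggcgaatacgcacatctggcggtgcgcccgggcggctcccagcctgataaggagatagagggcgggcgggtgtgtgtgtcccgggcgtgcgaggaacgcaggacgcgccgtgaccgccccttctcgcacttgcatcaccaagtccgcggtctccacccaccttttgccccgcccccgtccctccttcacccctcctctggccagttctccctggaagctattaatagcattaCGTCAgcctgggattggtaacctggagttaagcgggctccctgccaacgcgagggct
Fosb: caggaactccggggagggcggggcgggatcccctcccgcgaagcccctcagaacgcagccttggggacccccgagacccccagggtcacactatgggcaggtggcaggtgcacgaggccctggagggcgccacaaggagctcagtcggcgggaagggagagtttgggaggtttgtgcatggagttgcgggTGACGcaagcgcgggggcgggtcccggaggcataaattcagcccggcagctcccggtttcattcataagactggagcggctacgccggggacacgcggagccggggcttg
Ifrd1: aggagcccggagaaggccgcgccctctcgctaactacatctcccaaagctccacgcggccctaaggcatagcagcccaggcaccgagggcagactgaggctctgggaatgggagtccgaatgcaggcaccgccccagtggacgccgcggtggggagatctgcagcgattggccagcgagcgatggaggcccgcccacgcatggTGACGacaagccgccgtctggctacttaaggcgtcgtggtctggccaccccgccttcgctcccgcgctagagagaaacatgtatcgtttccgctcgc
Dusp1: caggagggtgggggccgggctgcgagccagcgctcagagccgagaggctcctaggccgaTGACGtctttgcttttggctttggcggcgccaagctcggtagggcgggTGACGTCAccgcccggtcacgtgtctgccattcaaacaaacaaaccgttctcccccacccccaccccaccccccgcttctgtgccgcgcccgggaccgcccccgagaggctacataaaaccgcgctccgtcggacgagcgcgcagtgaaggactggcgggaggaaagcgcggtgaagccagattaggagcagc
They lie at chr12:85473640-85473939, plus strand (Fos), chr1:191183284-191183583, minus strand (Atf3), chr7:19309996-19310295, minus strand (Fosb), chr12:40223140-40223439, minus strand (Ifrd1) and chr17:26508423-26508722, minus strand (Dusp1). The core stands 66 and 129 bases before the start of Fos, 7 before that of Atf3, 60 before that of Fosb and 47 before that of Ifrd1. Dusp1 holds the full palindrome TGACGTCA beginning 143 bases before its start, which counts on both strands, and another core at 191.

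Ribosome footprints of genes that the rule did not read were compared between high and low wells with counts summed per animal in P662, P758 and P59, the animals with at least 5 wells of each kind. Further immediate early genes, feedback regulators and 2 of 4 tested basal adhesion genes, Col17a1 and Dst, were higher in high wells. Lower were 4 of 20 tested differentiation genes of the spinous layer, Krt77, Sbsn, Dmkn and Dsc1. edgeR's quasi-likelihood test with the animal as a block called 22 of 215 genes tested (10.2%) at an adjusted p under 0.05, of which 16 were higher (7.44%) and 6 lower (2.79%). The 16 genes of the rule were left out of the test and the library sizes. Fosb, Dusp1 and other immediate early genes are known to be induced together with the genes that chose the wells, and their calls are no independent sign of that response. In 15 of the 22 every animal had the direction of the fit, 12 of them higher and 3 lower in high wells. The direction in P59 can rest on 1 count, which is worth 1189 CPM in its high wells of 841 counts. Jund, Ccnl1, Sbno2, Atf4 and Mt1 had a single count there, so P59 adds little to them. Summed counts follow the deepest wells, and low wells of P758 ran from 142 to 26814 counts. With the plain mean of each well's CPM, an alternative added after seeing the data, the direction held in all 3 animals for 14 of the 22, in P758 for 22 and in P662 for 19. The filter on low counts let 215 of the 22416 genes in the files be tested, and the calls speak for those alone. P758 carried most counts: without it the test called 0 of 89 genes (10 at an unadjusted p under 0.05), while without P59 it called 66 of 550, and DESeq2 called 2 of the 215, Fosb and Krt77 (20 at an unadjusted p under 0.05). Without the animal as a block edgeR called 6.

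Among transcription factors of the AP-1 family, 2 of 12 members in the list beside those of the rule had enough counts to be tested. Both rose, but Jund passed the filter only through its level in high wells. Fosb (chr7:19302696-19310118), a Fos relative, had 2381, 2852 and 3567 CPM in high wells, against 652, 443 and 1559 CPM in low wells. It was higher in all 3 animals, and the fitted log2 difference was 2.27 (SE 0.42, adjusted p 1.46e-05) in edgeR's test. Jund (chr8:70697739-70700616), a Jun protein present in resting cells, had 689, 867 and 1189 CPM in high wells and 279, 299 and 312 CPM in low wells. It was again higher in every animal, in P59 from 1 count in high wells, with a log2 difference of 1.56 (SE 0.39, adjusted p 0.00144) in edgeR's test. Fosl1, one of the 5 markers given for these wells, was too low to be tested: it had 8, 12 and 0 counts in high wells and 3, 10 and 1 in low wells. Atf4, the factor of the integrated stress response, rose by 1.71 (SE 0.46) on the log2 scale, at 627, 388 and 1189 CPM in high and 186, 114 and 624 CPM in low wells.

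Of 40 further immediate early genes, 4 could be tested and 3 rose, Ifrd1, Sik1 and Ccnl1. Ifrd1 (chr12:40203129-40223189), a transcriptional co-regulator, had 1504, 1027 and 0 CPM in high wells and 605, 201 and 935 CPM in low wells. It was higher in P662 and P758, had no count in the high wells of P59, and differed by 1.91 (SE 0.38, adjusted p 3.73e-05) in edgeR's test. Sik1, a salt-inducible kinase that restrains CREB signalling, had 1065, 616 and 2378 CPM in high wells and 466, 295 and 624 CPM in low wells, higher in all 3 animals, with a log2 difference of 1.18 (SE 0.38). With wells weighted equally P662 had 1020.1 CPM in its high and 1037 CPM in its low wells, so the order there depends on the weighting. Ccnl1, a cyclin tied to splicing, had 1003, 1323 and 1189 CPM in high and 745, 319 and 0 CPM in low wells, and differed by 1.65 (SE 0.39). Arc, another of the given markers and best known from neurons, had 11, 20 and 0 counts in high wells and 9, 7 and 4 in low wells and was too low to be tested. It was higher in high wells of P662 and P758 and had no count in those of P59.

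Feedback regulators were among the genes that rose. Dusp1 (chr17:26505591-26508472), a phosphatase that inactivates MAP kinases, was the 1 of 13 genes in the MAP kinase feedback list that could be tested. It had 1379, 2259 and 4756 CPM in high wells, against 791, 489.8 and 1247 CPM in low wells, was higher in all 3 animals and had a log2 difference of 1.72 (SE 0.42, adjusted p 0.00131) in edgeR's test. Nfkbiz, an atypical inhibitor protein of the NF-κB pathway, was likewise the 1 of 21 genes tested in its list. It had 627, 2715 and 0 CPM in high and 512, 416 and 1559 CPM in low wells, which is far apart in P758, close together in P662 and turned round in P59, and its fitted log2 difference was 1.79 (SE 0.52). With wells weighted equally it was lower in high wells of P662 too, at 636 CPM in high and 1290 CPM in low wells, so that only P758 kept the direction of the fit. Itpkc, which phosphorylates inositol trisphosphate, was higher in every animal at 1879.9, 1346 and 4756 CPM in high and 978, 265 and 312 CPM in low wells, a log2 difference of 1.93 (SE 0.43). Sbno2, a transcriptional co-regulator, rose by 1.95 (SE 0.39) at 815, 981 and 1189 CPM in high and 279, 235 and 624 CPM in low wells.

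Ovol1 (chr19:5549137-5560575), a zinc finger factor of epidermal differentiation and another given marker, was called higher, and the call rests on P758. Its level was 439, 821 and 0 CPM in high wells, against 652, 131 and 624 CPM in low wells, from 7, 36 and 0 and 14, 39 and 2 counts. It was higher in high wells of P758 and lower in those of P662 and P59, while the fit gave a log2 difference of 1.61 (SE 0.48, adjusted p 0.0169) in edgeR's test. It was the only called gene among 6 tested of 25 epidermal transcription factors. Trp63, the p63 factor of stratified epithelia, and Gata3 did not pass the test, with log2 differences of 0.53 and 0.30. Of the given markers, Atf3 belongs to the rule, Ifrd1 and Ovol1 were called, and Arc and Fosl1 rest on the counts above.

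**Figure D3:**
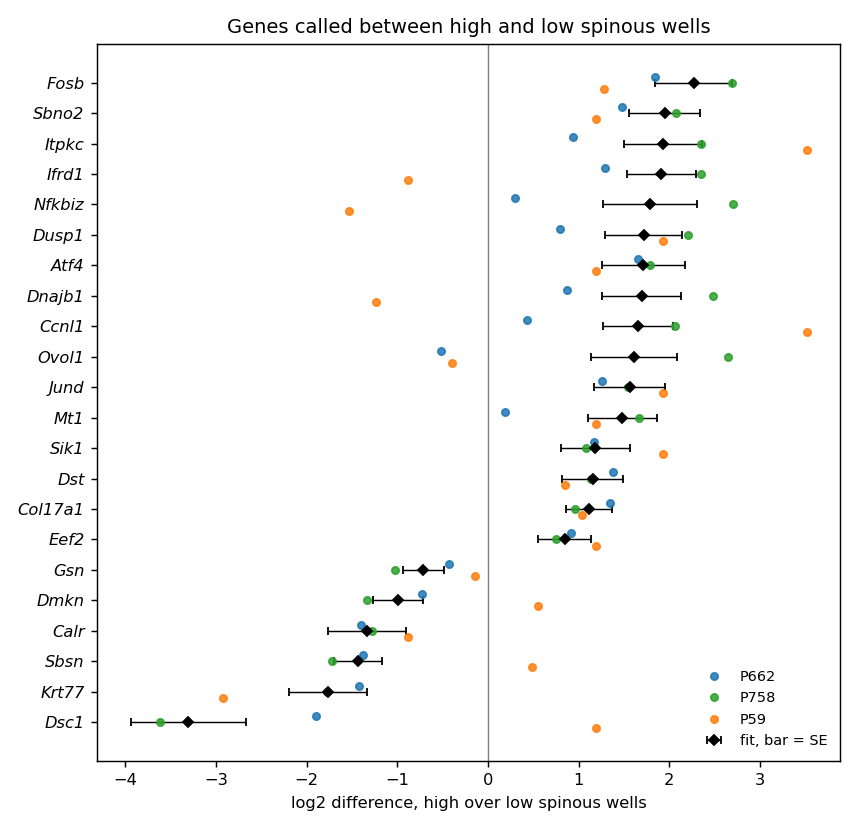
Log2 difference of high over low spinous wells for the 22 genes that edgeR called. Black diamonds are the fit with its standard error, and coloured points are the single animals from summed counts with 0.5 added to each count, P662 above, P758 in the middle and P59 below in each row. Points of P662 and P758 lie on the side of the fit for every gene but Ovol1, and points of P59 lie on the other side for Ifrd1, Nfkbiz, Dnajb1, Ovol1, Dmkn, Sbsn and Dsc1.

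The called genes of spinous differentiation were all lower in high wells. Of 29 in the list 20 were tested, 0 rose, 4 fell (Krt77, Sbsn, Dmkn and Dsc1) and 16 did not pass. The median log2 difference was -0.52, against 0.00 over all genes tested, and 5 of the 20 were positive. Krt77 (chr15:101858731-101869706), a type II keratin of the upper layers, had 15729, 10564 and 2378 CPM in high wells, against 42367, 36357 and 22451 CPM in low wells. It was lower in high wells of every animal, with a log2 difference of -1.76 (SE 0.43, adjusted p 0.00127) in edgeR's test. Sbsn (chr7:30732674-30756134), which codes for suprabasin, had 1879.9, 1209 and 3567 CPM in high and 4935, 4036 and 2806 CPM in low wells, lower in P662 and P758 and higher in P59, with a log2 difference of -1.44 (SE 0.27, adjusted p 1.46e-05) in edgeR's test. The size of the fall in P758 depends on how wells are weighted. With equal weights Krt77 had 8999 CPM in high and 19326 CPM in low wells of P758, a ratio of low over high of 2.15, against 3.44 from summed counts. That ratio was 1.85 for Sbsn, against 3.34 from summed counts. Krt77 was lower in high wells of P662 and P59 as well with equal weights. Dmkn, which codes for dermokine, behaved likewise at 1755, 1757 and 2378 CPM in high and 2933, 4452 and 1871 CPM in low wells (log2 difference -0.99, SE 0.28). Dsc1, the desmocollin of upper layers, had 0, 3 and 1 counts in high and 2, 291 and 2 in low wells, so that its call rests on P758. There its low wells were 14.3-fold above its high wells from summed counts and 3.83-fold with wells weighted equally.

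Dsp, the desmosomal plakin desmoplakin, is among the 16 and had 19551, 12321 and 10702 CPM in high and 26025, 21518 and 24010 CPM in low wells (log2 difference -0.78, SE 0.38). Krt1 and Krt10, which the rule used only as a ratio and a minimum, were lower in high wells of all 3 animals, as a description. Krt10 had 40293, 27038 and 33294 CPM in high and 70674, 59332 and 41472 CPM in low wells, and Krt1 had 26194, 20764 and 14269 CPM in high and 34499, 34686 and 28999 CPM in low wells. Of the granular layer, the step after the spinous one, Lor, Tgm1 and Cnfn had 0 counts among the 60941 of high wells. Lor, the main protein of the cornified envelope, was thereby at most 68.5 CPM in high wells of P758, against 916 CPM in its low wells, and had no count in either kind of well of P662 and P59. Tgm1 and Cnfn were near 0 in low wells too, with means of 20.1 and 6.7 CPM over the 3 animals. Casp14 went the other way, with means of 122 CPM in high and 62.5 CPM in low wells. Of 28 granular and cornified genes 3 were tested and 0 were called, with a median log2 difference of -0.51. Their summed level was 6956, 4016 and 3567 CPM in high and 7077, 11732 and 5613 CPM in low wells, close together in P662.

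Col17a1 and Dst, 2 genes of hemidesmosomes, were higher in high wells. Of 4 tested among 18 basal adhesion genes, 2 rose and 0 fell, with a median log2 difference of 0.49. Col17a1 (chr19:47646341-47692042), the transmembrane collagen of hemidesmosomes, had 3572, 4677 and 3567 CPM in high wells, against 1397, 2402 and 1871 CPM in low wells, and 11027, 10756 and 9740.3 CPM in high wells of the basal side. It was higher in high than in low spinous wells of all 3 animals (log2 difference 1.12, SE 0.26, adjusted p 5.06e-04 in edgeR's test) and lower than on the basal side in all 3. Dst, which codes for the hemidesmosomal plakin dystonin, had 2819.9, 2350.2 and 4756 CPM in high and 1071, 1077 and 2806 CPM in low wells and rose by 1.15 (SE 0.34). Krt15 and Plec, the other genes tested, did not pass, with log2 differences of -0.64 and -0.13. The integrin genes of hemidesmosomes, Itgb4 and Itga6, were too low to be tested and went opposite ways. Over the 3 animals Itgb4 had means of 137 CPM in high and 606 CPM in low wells, and Itga6 706 and 228 CPM. The basal keratin Krt5, a gene of the rule, had 3384, 4289.6 and 1189 CPM in high and 2142, 3342 and 6860.0 CPM in low wells, and its order differed between the animals.

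Few stress genes could be tested. Of 17 chaperone genes 3 were tested and 1 rose, Dnajb1, a partner of Hsp70, at 1879.9, 2054 and 0 CPM in high and 1024, 369 and 1247 CPM in low wells (log2 difference 1.70, SE 0.43, with no count in high wells of P59). Hsp90ab1, a cytosolic chaperone, did not pass, with a log2 difference of -0.74. Of 17 genes of the integrated stress and unfolded protein responses 4 were tested, where Atf4 rose and Calr, a calcium-binding chaperone of the endoplasmic reticulum, fell by 1.34 on the log2 scale (SE 0.43) at 313, 342 and 0 CPM in high and 885, 859 and 935 CPM in low wells. Mt1, a metallothionein, had 313, 1278 and 1189 CPM in high and 279, 406 and 624 CPM in low wells and rose by 1.48 (SE 0.38), and with wells weighted equally it was lower in high wells of P59. Reads that Mt1 and Krt77 may share with near-identical genes were not checked. Eef2, the elongation factor of translation, rose by 0.84 (SE 0.29), and Gsn, the actin-severing protein gelsolin, fell by 0.71 on the log2 scale (SE 0.23) at 3948, 2076 and 2378 CPM in high and 5354, 4241 and 3118 CPM in low wells. No gene of the wound, p53 or proliferation lists had enough counts to be tested.

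High wells showed few footprints of melanocyte, Merkel cell, T cell, fibroblast or endothelial markers. Melanocyte and Merkel cell markers had 0 counts (7 and 5 genes), T cell markers 1 count and fibroblast or endothelial markers 2 among 60941 counts. Langerhans cell markers had 16 counts, all in P758, where they made 365 CPM in high wells, against 195 CPM in low wells. The sums rest on different genes: Cd74 gave 9 of the 16, whereas over all low wells Epcam gave 104 of 124. Upper follicle markers had 127 counts (Cd9 65), sebaceous gland markers 65 (Fasn 51) and outer bulge markers 23 (Gas6 21). Of the markers of the upper follicle 2 of 10 were tested, of the sebaceous gland 1 of 11 and of the outer bulge 0 of 10, and 0 were called. Likewise 0 were called of 3 Notch, 2 cholesterol synthesis and 3 actin genes tested. Mitochondrially encoded genes had a median log2 difference of 0.51 over 4 tested and ribosomal protein genes one of 0.73 over 2, and 0 of them were called. Their part in the results was not tested.

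In the windows around start sites, the core TGACG or CGTCA stood in 5 of the 7 rule genes with an entry, in 10 of the 13 called higher and in 1 of the 5 called lower, Dmkn. The share was 37.1% of the tested genes and 23.0% of all 27025 genes with a window. The AP-1 site TGAGTCA or TGACTCA was found in 0 of the 7 rule genes, in 0 of 13 called higher and in 2 of 5 called lower, Sbsn and Dmkn, against 8.38% of the tested and 5.95% of all genes. The CArG box, the core of the serum response element, was found in 1 of the 7 rule genes, Zfp36. It stood in 0 of 13 called higher and 0 of 5 called lower, against 1.80% of the tested and 1.81% of all genes. A gene was counted if any of its windows held a match. These are matches of letters on both strands, and they describe the windows only.

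To see what sets these wells apart from the nearest kind, they were compared with 171 immediate early high wells of the basal side, whose ratio of Krt1 and Krt10 was below 0.5. edgeR called 61 of 148 genes tested (41.2%), 35 higher (23.6%) and 26 lower (17.6%) in spinous high wells. These numbers include the 9 immediate early genes of the rule, which chose both kinds of wells. Of those 9, Nr4a1 is among the 26 lower and 8 were not called. Among genes that the rule did not read, 14 of 17 spinous differentiation genes tested rose and 1 fell, and all 6 basal adhesion genes tested fell. A gene could pass the filter on low counts through 1 kind of well alone. Krtdap, Calm4 and Lypd3 passed through spinous wells only, and Itgb4 and Dsg3 through basal wells only. The direction of such genes was set by the filter, so the tallies are a description. Krtdap, a secreted product of differentiating keratinocytes, had 2068, 2943 and 1189 CPM in spinous high wells, against 0, 38.9 and 0 CPM in basal high wells, a log2 difference of 6.15 (SE 0.43, adjusted p 3.62e-33) in edgeR's test. Krt77 had 15729, 10564 and 2378 CPM, against 973, 397 and 649 CPM on the basal side (log2 difference 4.48, SE 0.32). Both were higher in every animal, as were Sbsn (log2 difference 4.77, SE 0.44), the calmodulin relative Calm4 (log2 difference 4.34, SE 0.38) and Zfp750, a factor of terminal differentiation (log2 difference 2.94, SE 0.50).

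Among the genes that were lower, Itgb4, the integrin of hemidesmosomes, had 251, 159.7 and 0 CPM in spinous high wells, against 2676, 1891 and 5195 CPM in basal high wells (log2 difference -3.54, SE 0.41, adjusted p 1.59e-14 in edgeR's test). Its partner Itga6 fell by 1.91 on the log2 scale (SE 0.34). Krt15, a basal keratin, and Dsg3, the desmoglein of lower layers, had log2 differences of -1.95 (SE 0.27) and -3.72 (SE 0.52). Thbs1, an adhesive glycoprotein, had 689, 183 and 0 CPM in spinous and 5270.4, 809 and 1948 CPM in basal high wells (log2 difference -2.53, SE 0.36). Ccn1, an immediate early gene of the matrix, fell by 1.88 on the log2 scale (SE 0.33). Alox12e, a lipoxygenase of the epidermis, was instead higher in spinous high wells of all 3 animals (log2 difference 5.15, SE 0.74). It had no count in basal high wells of P662 and P59. In the list of upper follicle markers it was the 1 called of 2 tested in this comparison.

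The 9 genes of the rule chose both kinds of wells, so their sum is at least 2% in both by construction. Its median was 3.19% in either kind, and the values of single genes are a description without a test. Nr4a1 had 2569, 1301 and 1189 CPM in spinous high wells, against 4135, 2374 and 1948 CPM in basal high wells, lower in all 3 animals, and it is one of the 26 counted as lower. The fitted log2 differences of the other 8 lay between -0.23 and 0.13. Fosb, Jund, Dusp1 and Nfkbiz did not pass the test, with log2 differences of 0.37, -0.40, -0.23 and 0.41, whereas Mt1 fell by 1.19 on the log2 scale (SE 0.33) and Itpkc rose by 0.83 (SE 0.28).

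**Figure D4:**
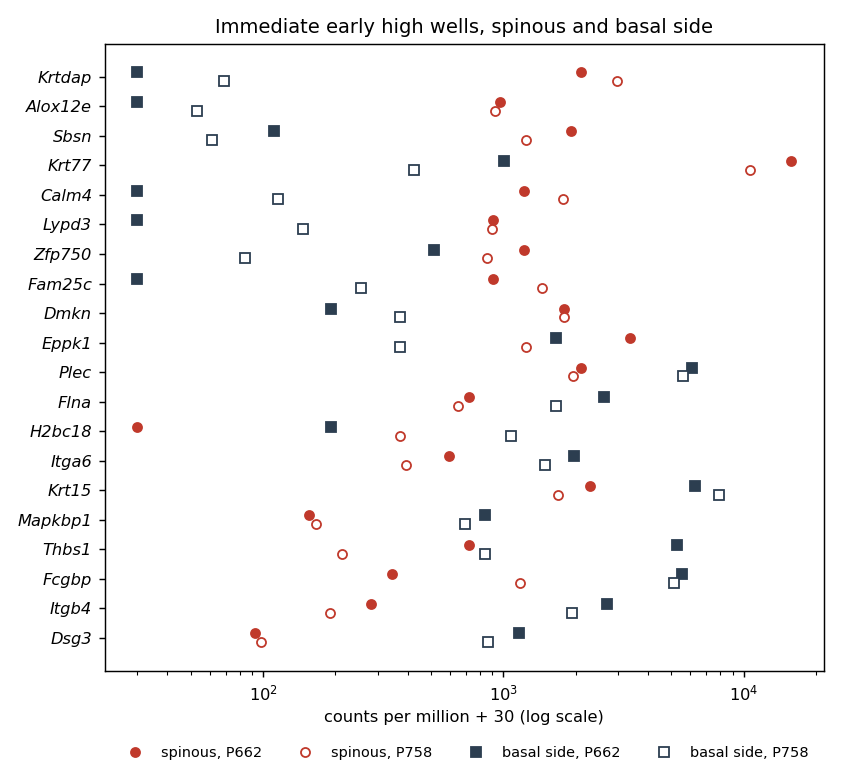
Level of the 10 genes with the largest rise and the 10 with the largest fall between immediate early high wells of the spinous side (red circles) and of the basal side (dark squares), in P662 (filled) and P758 (open), on a log scale with 30 added to each value. P59 entered the fit and is left out of the plot because 1 count is worth 1189 CPM there. In both animals the upper 10 genes lie to the right in spinous wells and the lower 10 to the left.

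Whether a gene differs between high and low wells more on the spinous than on the basal side was tested as an interaction over the 4 kinds of wells. edgeR called 0 of 231 genes (0%) and DESeq2 likewise 0, while 6 and 5 genes had an unadjusted p under 0.05. The smallest p belonged to Krt77, with a difference of -1.35 (SE 0.56, adjusted p 0.976) in edgeR's test, followed by Anxa2, an annexin (log2 difference -0.89, SE 0.39), and Dst (log2 difference 0.91, SE 0.41). For Fosb (log2 difference 0.36, SE 0.49), Dusp1 (log2 difference -0.21, SE 0.51) and Ifrd1 (log2 difference 0.33, SE 0.67) the interaction was smaller than its SE. The data therefore do not show that any of these differences is particular to the spinous side, nor that they are equal on both.

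Age within high wells could be compared only between P662 and P758 and the lone young animal P59, whose spread is assumed to be that of the old. edgeR called 3 of 384 genes (0.781%), Krt77, Jun and Itm2b, all higher in old animals. Jun is a gene of the rule, so its call supports nothing and its values are a description. Krt77 had 15729 and 10564 CPM in the old animals, against 2378 CPM from 2 counts in P59, a log2 difference of 3.85 (SE 0.98, adjusted p 0.0225) in edgeR's test. Jun and Itm2b had no count in the 841 counts of P59, where 0 allows up to 3567 CPM, and their levels in the old animals were 4199 and 4472 CPM and 4762 and 3399.7 CPM. Without TMM factors and with DESeq2 0 of the 3 were called, and the median log2 difference over all genes moved to -0.86 without TMM factors, against 0.56 with them. In low wells, where all 6 animals could be used, Krt77 had 42367, 18813 and 36357 CPM in P662, P722 and P758, against 52179, 22451 and 36062 CPM in P57, P59 and P60. There edgeR called 0 of 106 genes (0%) and DESeq2 likewise 0, while 3 and 0 genes had an unadjusted p under 0.05.

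A further plate of P758, on which ribonucleases were varied, was not used by the rule. On it 14 of 70 spinous wells met the rule (20%, exact 95% interval 11.4 to 31.3%), against 17.8% on the other plates of P758. Of the 22 called genes 21 had the same direction there, 15 of 16 higher and 6 of 6 lower, and in 11 the exact Poisson intervals, which cover counting error only, did not overlap. Over all 215 genes tested 134 had the direction of the fit there (62.3%), and 16 had it without overlap (7.44%). Nfkbiz had 2575 CPM (interval 1550.5 to 4022) in high wells, against 328 CPM (169.7 to 574) in low wells. Krt77 had 5286 CPM (interval 3759 to 7226) in high wells, against 20498 CPM (19056 to 22020.2) in low wells. The exception was Sbno2, with 271 CPM (interval 32.8 to 979) in high and 411 CPM (229.8 to 677) in low wells. The cells of this plate come from an animal that is in the fit, so they are no further replicate.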

How the data were processed

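The deposited files hold the authors' footprint counts per gene and well as whole numbers. Per the submitters' processing notes fastp, Bowtie2, STAR, UMI-tools and featureCounts were used with GRCm38.p6 (versions, order and settings not given in the sources used here). The 10 plates held 1924 wells. The wells and gene lists were chosen with earlier results of these data known. Counts were summed per animal and class, and plates with the same age and day count as 1 animal, an assumption that makes each animal the pair of its high and low wells. Well barcodes repeat between plates (383 of 384), being well indices. Sums were tested in edgeR 4.0.16 (R 4.3.3) by robust quasi-likelihood with TMM factors, after filterByExpr, and adjusted by Benjamini-Hochberg (0.05). Library sizes leave out the 16 genes of the rule between high and low wells and only the 4 keratins between spinous and basal high wells, while age tests and printed CPM use whole totals. Each SE was derived from the log2 difference and its F statistic. High wells held 15958 counts in P662, 43827 in P758 and 841 in P59, and low wells 21479, 298070 and 3207. P60, with 1 high well, and P722 and P57, with 0, gave no pair. Alternatives were DESeq2 1.42.0, no filter, no TMM factors, leaving out each animal, no block, plates, other thresholds and thinning, and P60 added, which was chosen after seeing the data. Named genes are up to 10 called in each direction with one direction in every animal, the genes of the rule, the given markers and up to 4 per list. The other called genes were named after their values were seen. Of 22416 symbols 21754 matched RefSeq. The steps were tested on simulated data.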

Additional observations from a re-analysis of the deposited data

Results flagged for a closer look

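The 5 high wells of P59 all came from 1 plate, on which 50% of the spinous wells met the rule. The plate stands apart from the other 4 young plates, which had 0 to 1.54%, but 3 of those came from the lone animal P60 and the other held 3 spinous wells (0 of 3, exact upper limit 70.8%). Chance sets 1 of 5 independent plates apart in this way in about 1 of 20 cases, which does not hold for plates that share an animal. On the nuclease plate of P758, which entered no test, 20% of the spinous wells met the rule.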

How the results depend on the processing

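The 22 calls between high and low spinous wells became 2 with DESeq2, 11 of 11348 genes without the filter, 6 with no replicate block, 13 of 86 with plates as the block, 0 of 13 with wells thinned to 100 counts and 9 with P60 added. Leaving out each animal gave 0 to 66. In each of these settings every one of the 22 that was tested kept its direction. Only 12 of the 22 were tested without P758, 12 with plates as the block, 16 with P60 added and 3 with thinned wells. The direction of the others in those settings was not tested. Pairing comes from high and low wells of the same animal, and the cause of the loss without the block was not tested. At 5% immediate early counts only P662 kept enough high wells, so no fit was run. Between spinous and basal high wells the 61 calls became 32 with DESeq2, 111 without the filter and 9 to 156 when animals were left out. Age within high wells gave 0 calls with DESeq2 and without TMM factors and 8 without the filter, and leaving out animals left no spread to test. Age within low wells gave 34 calls of 12523 genes without the filter and 0 to 2 when animals were left out. The interaction had 0 calls in every setting run. The age difference in the share of high wells was -0.544 percentage points at 5% immediate early counts and 21.5 among wells of at least 500 counts. At 500 counts P722, P57 and P59 held only 1, 2 and 2 spinous wells. When animals were left out the age difference ran from -7.96 to 25.4. The cause of these changes was not tested, beyond the numbers of genes and animals that the settings leave.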

Other observations

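Across 452 spinous wells thinned to 100 counts, the genes whose counts ranked most like the immediate early sum were Fosb (Spearman rho 0.28), Ifrd1 (0.26), Dnajb1 (0.22), Dusp1 (0.20) and Fat2 (0.17). These wells share plates and animals, the counts are sparse, and the values are a description. On the plate of Sca-1-negative cells 1 spinous well met the rule and 1 did not.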
